A study of Drosophila melanogaster with 40 samples.

Results

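Antioxidant defence in the fly leg was followed through 10 genes, 8 that encode antioxidant enzymes and 2 that encode regulators of the Nrf2 pathway. The enzymes are the superoxide dismutases Sod1, Sod2 and Sod3, the catalase Cat, the thioredoxin Trx-2, the peroxidase PHGPx, and Gclc and Gclm, the subunits of glutamate-cysteine ligase. The regulators are Keap1 and cnc. They were taken by gene name from a table of read counts with 23932 features. All 10 were found, each on 1 row, and each was among the 12939 features with enough counts to be tested.

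The counts came from polyadenylated RNA of the legs of male Drosophila melanogaster, sequenced as 40 strand-specific libraries. Hsp70-null flies (w1118; Df(3R)Hsp70A, Df(3R)Hsp70B) carry deletions that remove 6 genes of the heat-inducible chaperone Hsp70, and w1118 flies carry those genes. Hsp70-null and w1118 flies were each sampled untreated at days 7, 23 and 47 of adult life, at day 7 right after 2 h of exercise, and at day 23 after a training course of 19 days, in tubes that a device rotated. Each of the 10 groups held 4 pools of legs from 15 flies, and both strains carry the w1118 allele. The stocks came from different stock centres, so the effect of the deletions and of any other difference between the stocks cannot be told apart. The labels do not say whether the pools of a group were reared separately, and p-values measure the spread between pools.

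Library totals were 21955858 to 30076080 counts at days 7 and 23 and 35144736 to 39313671 counts at day 47, so depth and the oldest age cannot be told apart. Of the 6 deleted genes, the 5 other than Hsp70Bb summed to 11 counts over the 20 Hsp70-null libraries, against 1748 over the 20 w1118 libraries. Hsp70Bb had 1283 counts in Hsp70-null and 1149 in w1118 libraries. Tissue marker sums are given in CPM, counts scaled to a common library total. Each of the 14 muscle markers had a median of at least 1 CPM. RNA of other organs was uneven. The 18 testis markers that are low in most libraries summed to 2509 CPM in Hsp70-null day 7 replicate 2, to 972 in exercised w1118 replicate 1 and to 762 in trained w1118 replicate 1, against at most 89.2 in the other libraries. Gut markers ranged from 61.2 to 27064 CPM and eye markers from 68.2 to 10357 CPM over the 40 libraries. The 11 accessory gland markers, with a median sum of 1.07 CPM, summed to 1979 CPM in exercised w1118 replicate 3 and to 982 CPM in trained Hsp70-null replicate 2.

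Superoxide dismutases turn superoxide into hydrogen peroxide, which catalase, peroxidases and the thioredoxin and glutathione systems then remove. Nrf2 is a transcription factor that raises the expression of such enzymes under oxidative stress, and Keap1 holds it back by handing it to a Cul3 ubiquitin ligase. In flies the long CncC isoform of cnc is the counterpart of Nrf2. Muscle, which fills much of the leg, makes superoxide in its mitochondria as it works.

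Per kilobase of exon, the superoxide dismutase of the cytosol, Sod1, had the highest level of the 10 and Keap1 the lowest. Gene levels are CPM on scaled library sizes, and only here are they divided by exon length so that genes can be set side by side. Over the 40 libraries Sod1 averaged 555 ± 111 CPM per kilobase and Cat 305 ± 61.8 CPM per kilobase (SD, n = 40). PHGPx averaged 221 ± 33.7, Sod2 172 ± 33.8 and Trx-2 130 ± 21.7 CPM per kilobase. The other members lay lower, with Gclm at 51.5 ± 12.3, cnc at 43.3 ± 4.14, Sod3 at 40.3 ± 7.09, Gclc at 35.9 ± 7.98 and Keap1 at 5.88 ± 1.40 CPM per kilobase. The highest library exceeded the lowest 1.67-fold for cnc, the least variable member, and 2.96-fold for Keap1, the widest ratio. The Keap1 ratio rests on 1 library, w1118 day 47 replicate 2 at 46.6 CPM. The next highest Keap1 library had 26.2 CPM and the lowest 15.8 CPM. Keap1, the member with the fewest counts, had at least 350 in every library.

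In Ensembl BDGP6.54, Sod1 (FBgn0003462) lies at chr3L:11112281-11113740, Cat (FBgn0000261) at chr3L:18822604-18828188 and PHGPx (FBgn0035438) at chr3L:3326265-3328626. Sod2 (FBgn0010213) lies at chr2R:16772785-16773915 and Sod3 (FBgn0033631) at chr2R:11380347-11384114. Trx-2 (FBgn0040070) is at chr2L:9613166-9616404 and Gclc (FBgn0040319) at chrX:8102181-8116147. Gclm (FBgn0046114), Keap1 (FBgn0038475) and cnc (FBgn0262975) are on 3R, at 22685006 to 22686510, 17073942 to 17079945 and 23185580 to 23226711. No member shares exon bases with another gene on its own strand. The cnc gene has 16 annotated transcripts, and counts per gene do not separate CncC from the shorter isoforms.

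**Figure D1:**
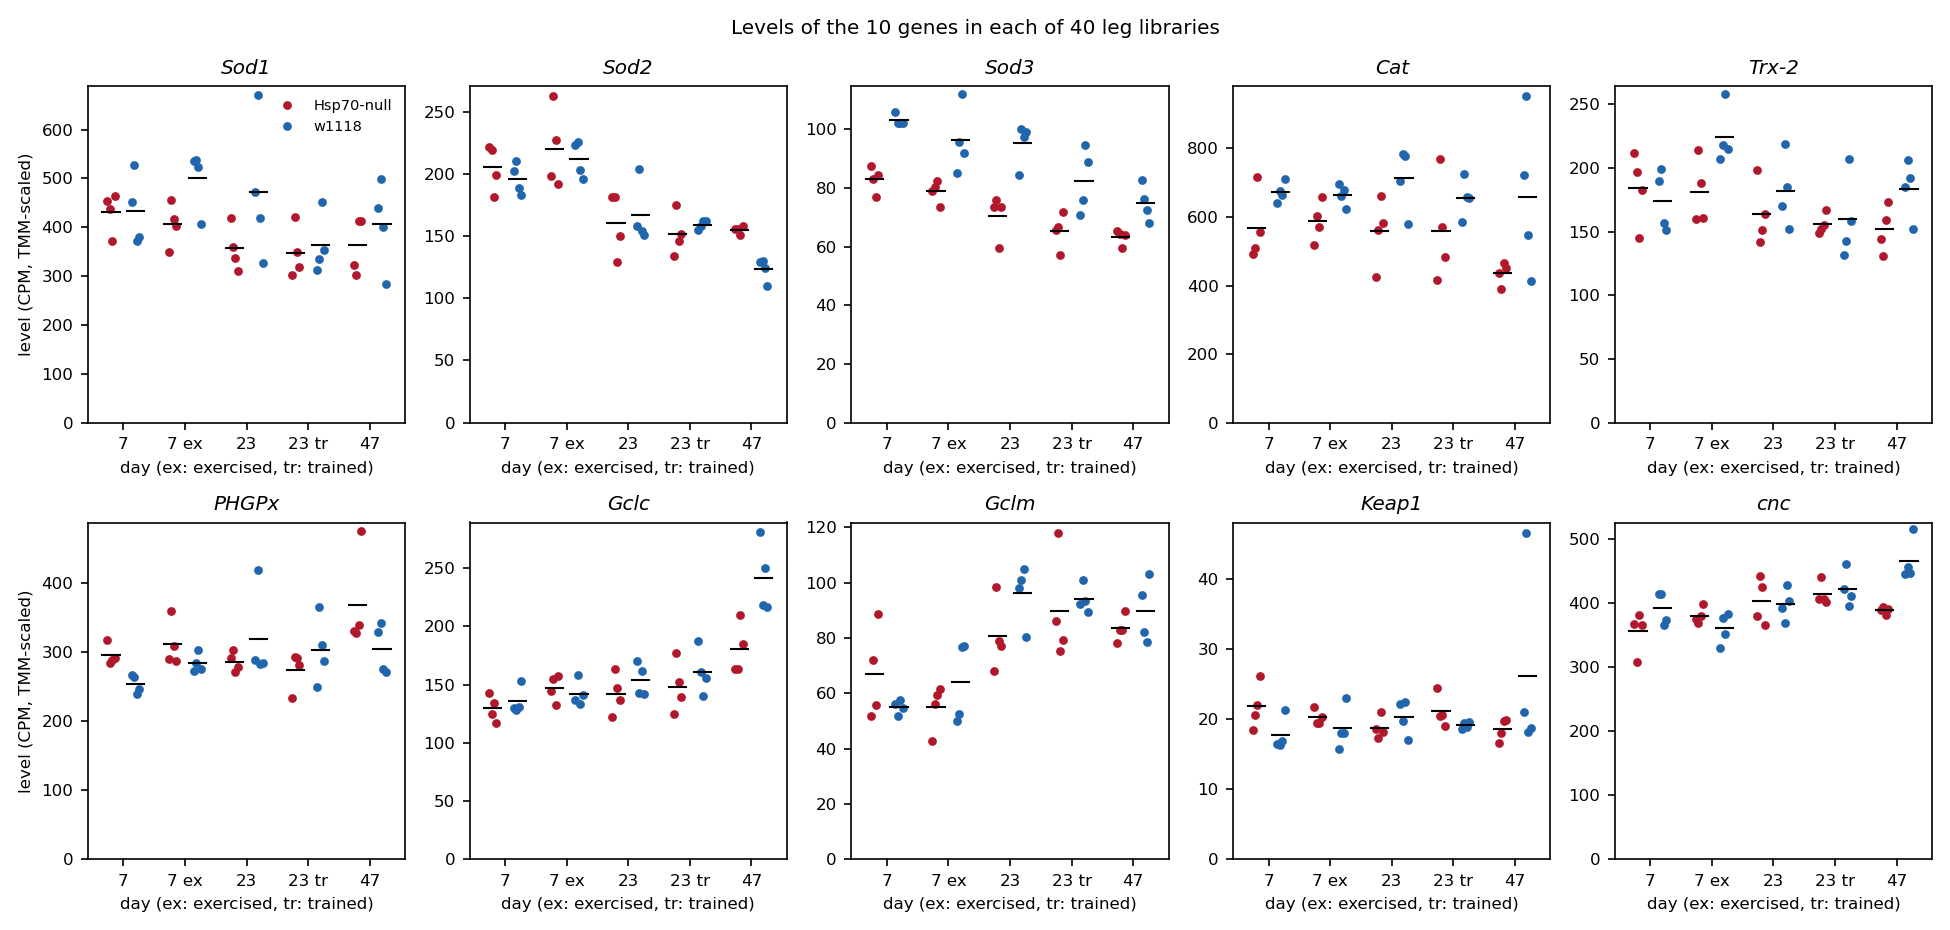
Level of each of the 10 genes (y axis, CPM on scaled library sizes) in each of the 40 libraries, by day and treatment (x axis; ex is exercised, tr is trained), with Hsp70-null libraries in red to the left of w1118 libraries in blue and a line at each group mean of 4 pools. The Sod3 group mean is lower in Hsp70-null in all 5 pairs, Gclc climbs at day 47 in both strains, and a single w1118 library at day 47 stands at 46.6 CPM for Keap1.

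Between the strains, Sod3 was lower in Hsp70-null legs in all 5 comparisons, and at day 47 it was joined by Cat, Gclc and cnc, which were lower, and Sod2, which was higher. A gene is called here when its adjusted p is under 0.05 in edgeR's quasi-likelihood test over all tested features. At day 7, 1 of the 10 members was called and 25.8% of all features were; at day 23 it was 1 of 10 and 17.8%. At day 47, 5 of 10 members were called (1 higher, 4 lower in Hsp70-null), against 19.4% of all features. In exercised flies 1 of 10 was called against 20.2%, and in trained flies 1 of 10 against 15.6%. Without the 3 libraries with testis markers, 2002 features were called at day 7 in place of 3341. The median log2 fold change of the 10 members was 0.03 at day 7, −0.15 at day 23 and −0.25 at day 47, where the medians of all features were 0.01, −0.01 and −0.02.

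With age, Gclc was higher and Sod2 and Sod3 lower at day 47 than at day 7 in both strains. In Hsp70-null legs 4 of 10 members were called for day 47 against day 7 (2 higher, 2 lower), where 28.9% of all features were called. In w1118 legs 6 of 10 were called (4 higher, 2 lower), where 37.6% of all features were. The shorter steps gave fewer calls. For day 23 against day 7, 1 of 10 was called in Hsp70-null (17.3% of all features) and 1 of 10 in w1118 (11.1%). Between days 23 and 47, edgeR called 0 of 10 in Hsp70-null (3.6% of all features), with 2 at an unadjusted p under 0.05 and 2 called by DESeq2, and 4 of 10 in w1118 (13.4%). Without the 3 libraries with testis markers, 914 features in place of 2234 were called for day 23 against day 7 in Hsp70-null. The comparisons of an age pair with the strain pairs at those ages share libraries, and so do the age comparisons among themselves.

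Sod3, which encodes the extracellular superoxide dismutase, was called lower in Hsp70-null in each of the 5 pairs of groups. At day 7 its levels were 87.6, 83.1, 76.8 and 84.5 CPM in Hsp70-null and 106, 102, 102 and 102 CPM in w1118 pools. At day 23 they were 73.5, 75.8, 59.5 and 73.4 CPM in Hsp70-null and 84.4, 100, 97.3 and 99.0 CPM in w1118 pools. Every Hsp70-null pool was below every w1118 pool at both ages. The log2 fold change was −0.31 ± 0.09 at day 7 (SE, adjusted p = 0.0095 in edgeR's quasi-likelihood test) and −0.43 ± 0.09 at day 23 (adjusted p = 0.000389). In these bulk samples, fewer cells of a type and less RNA per cell cannot be told apart.

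The Sod3 difference had the same sign after exercise and training. Exercised flies had 79.0, 80.4, 82.4 and 73.5 CPM in Hsp70-null and 85.2, 95.7, 112 and 91.8 CPM in w1118 pools, without overlap (log2 fold change −0.29 ± 0.09, adjusted p = 0.0187). Trained flies had 65.8, 66.8, 57.0 and 71.9 CPM in Hsp70-null and 70.7, 75.9, 94.8 and 88.7 CPM in w1118 pools, where the highest Hsp70-null pool passed the lowest w1118 pool (−0.34 ± 0.09, adjusted p = 0.00615). The call in exercised flies was lost without Hsp70-null replicate 4 (adjusted p = 0.0773), without w1118 replicate 3 (0.1) and with testis and gut markers as covariates (0.0697). That w1118 pool, at 112 CPM, is the library with the highest accessory gland marker sum. The gut sums of the exercised groups did not overlap, so the covariate fit cannot tell strain and gut RNA apart. In trained flies the call was lost without w1118 replicate 3 (0.0517), with the trained groups fitted alone (0.115) and with a replicate block in that fit (−0.31, adjusted p = 0.198). Same-numbered trained pools of the strains deviated together over all features. At day 47 the levels were 65.3, 64.3, 59.4 and 64.1 CPM in Hsp70-null and 82.8, 76.2, 72.5 and 68.2 CPM in w1118 pools, again without overlap (−0.24 ± 0.09, adjusted p = 0.0447). The day 47 call is weak. It was lost in 7 of the 8 fits that left out 1 library, all but the one without w1118 replicate 4, with adjusted p up to 0.187. The adjusted p was 0.0536 with a replicate block and 0.351 with muscle and fat body markers as covariates (−0.18). The muscle sums of the day 47 groups did not overlap, so the covariate fit cannot tell strain and muscle RNA apart.

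Sod3 was lower in older legs in both strains. Its log2 fold change for day 47 against day 7 was −0.39 ± 0.09 in Hsp70-null (adjusted p = 0.00101) and −0.46 ± 0.09 in w1118 (adjusted p = 9.34e-05), and the ages did not overlap in either strain. In Hsp70-null neither shorter step was called on its own, with −0.23 ± 0.09 (adjusted p = 0.0564) for day 23 against day 7 and −0.16 ± 0.09 (0.386) for day 47 against day 23. In w1118 day 47 against day 23 was called (−0.34 ± 0.09, adjusted p = 0.00632, and 0.057 with the compared groups fitted alone). Of the 9 steps between neighbouring groups in the order of mean Sod3 level, 1 exceeded the larger of the SDs. It lay between Hsp70-null at day 7 (83.0 ± 4.56 CPM) and w1118 at day 23 (95.2 ± 7.29 CPM).

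Sod2, the manganese superoxide dismutase of mitochondria, fell with age. In Hsp70-null legs it had 222, 219, 181 and 199 CPM at day 7, 181, 181, 129 and 150 CPM at day 23, and 156, 156, 151 and 158 CPM at day 47. In w1118 legs it had 202, 210, 189 and 183 CPM at day 7, 158, 204, 154 and 151 CPM at day 23, and 129, 130, 124 and 110 CPM at day 47. All pools at day 47 were below all pools at day 7 in either strain. Day 47 against day 7 gave −0.41 ± 0.10 in Hsp70-null (log2 fold change, adjusted p = 0.00386) and −0.67 ± 0.10 in w1118 (adjusted p = 6.41e-06). Muscle marker sums were also lower in w1118 at day 47, at 14981 to 16260 CPM, against 23866 to 31777 CPM at day 7. With muscle and fat body markers as covariates the w1118 value of Sod2 was −0.64 (adjusted p = 0.00187). The muscle sums of these w1118 ages did not overlap, so this fit cannot tell age and muscle RNA apart, and the cause was not tested. In Hsp70-null the muscle sums overlapped, with 20476 to 25092 CPM at day 47 and 22360 to 28811 CPM at day 7. There the value with muscle and fat body markers as covariates was −0.28 (adjusted p = 0.016). With testis and gut markers as covariates the Hsp70-null value was −0.35 (adjusted p = 0.0537), although the gut sums of these ages did not overlap. The called steps were different ones: in Hsp70-null the call was at day 23 against day 7 (−0.36 ± 0.10, adjusted p = 0.0211), in w1118 at day 47 against day 23 (−0.43 ± 0.10, adjusted p = 0.00426, and 0.0714 with the compared groups fitted alone). In w1118 day 23 against day 7 was −0.23 ± 0.10 (adjusted p = 0.145), and −0.35 without day 23 replicate 2 (adjusted p = 0.0309). The difference between the strains did not pass its own test, with a strain by age log2 difference of 0.38 ± 0.15 for day 47 against day 23 (adjusted p = 0.301). The Hsp70-null call at day 23 was lost without day 23 replicate 3 (adjusted p = 0.0844), without day 23 replicate 4 (0.0712) and without day 7 replicate 2, the library with the highest testis marker sum (0.0786). With muscle and fat body markers as covariates it was −0.19 (adjusted p = 0.235), and with the compared groups fitted alone the adjusted p was 0.117.

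At day 47 Sod2 was the 1 member called higher in Hsp70-null than in w1118 legs, with every Hsp70-null pool (151 to 158 CPM) above every w1118 pool (110 to 130 CPM). That log2 fold change was 0.33 ± 0.10 (adjusted p = 0.0226). It was lost without Hsp70-null replicate 1 (0.0501), without Hsp70-null replicate 4 (0.056), without w1118 replicate 4 (0.0909) and with no filter on low counts (0.0671). Muscle marker sums moved the same way at day 47, with 20476 to 25092 CPM in Hsp70-null and 14981 to 16260 CPM in w1118 pools. With the logarithms of the muscle and fat body sums as covariates, the Sod2 difference was 0.35 (adjusted p = 0.0217). The muscle sums of the strains did not overlap here, so this fit cannot tell strain and muscle RNA apart, and the cause was not tested.

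Sod1, the copper and zinc enzyme of the cytosol, was called in no comparison. Its group means ranged from 348 ± 52.0 CPM in trained Hsp70-null to 501 ± 63.5 CPM in exercised w1118 legs (SD, n = 4 each). The pools of 1 group spread widely, as at day 23 in w1118 with 472, 670, 418 and 327 CPM. None of the 9 steps between neighbouring groups exceeded the larger SD. Its largest strain difference, at day 23, was a log2 fold change of −0.40 ± 0.17 (adjusted p = 0.117), which, of the alternatives run, was called only without w1118 day 23 replicate 4 (−0.54, adjusted p = 0.0292).

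Cat, the catalase of peroxisomes, was lower in Hsp70-null legs at day 47. Its levels there were 436, 391, 465 and 450 CPM in Hsp70-null and 722, 954, 547 and 412 CPM in w1118 pools. The Hsp70-null pools lay close together, the w1118 pools were widely spread, and w1118 replicate 4 fell inside the Hsp70-null range. The Cat difference was −0.60 ± 0.18 on the log2 scale (adjusted p = 0.0149). It rests on few libraries: it was −0.36 without w1118 replicate 2 (adjusted p = 0.152), and the call was also lost without w1118 replicate 1 (0.0507), without Hsp70-null replicate 2 (0.056), and with the day 47 groups fitted alone (0.117). With muscle and fat body markers as covariates it was −0.40 (adjusted p = 0.292). The muscle sums of these groups did not overlap, so that fit cannot tell strain and muscle RNA apart. At day 7 Cat averaged 569 ± 103 CPM in Hsp70-null pools, against 672 ± 29.0 CPM in w1118 pools (adjusted p = 0.343). At day 23 it averaged 558 ± 98.7 CPM in Hsp70-null pools, against 712 ± 95.1 CPM in w1118 pools (adjusted p = 0.191).

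PHGPx encodes a glutathione peroxidase homologue that acts on lipid peroxides and in flies draws on thioredoxin. In Hsp70-null legs it had 331, 328, 340 and 476 CPM at day 47 and 318, 285, 289 and 292 CPM at day 7, so the ages did not overlap. The log2 fold change of 0.32 ± 0.12 passed narrowly (adjusted p = 0.0478). Without the pool at 476 CPM, day 47 replicate 4, it was 0.17 (adjusted p = 0.27). The call was also lost without day 47 replicate 3 (0.0565) and without day 7 replicate 2 (0.115), 3 (0.0752) or 4 (0.0757), and 3 of 8 fits that left out 1 library and 6 of 11 other alternatives kept it. In w1118 the same age contrast was 0.26 ± 0.12 (adjusted p = 0.0881). It was called with no filter (0.0109), with a minimum of 10 counts (0.0398) and with testis and gut markers as covariates (0.021). The gut sums of these ages did not overlap. The strains' age effects differed by 0.05 ± 0.17 (adjusted p = 0.9). The 95% interval of the age effect was 0.08 to 0.56 in Hsp70-null and 0.03 to 0.50 in w1118. In w1118 day 23 against day 7 gave 0.33 ± 0.12 (adjusted p = 0.0786, and 0.0444 by DESeq2). In Hsp70-null day 47 against day 23 gave 0.37 ± 0.12 (adjusted p = 0.0968, and 0.0297 by DESeq2). The strain difference was 0.22 ± 0.12 at day 7 (adjusted p = 0.185), called with the compared groups fitted alone (0.0228). It was −0.15 ± 0.12 at day 23 (adjusted p = 0.453) and 0.28 ± 0.12 at day 47 (0.115).

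Trx-2, the main cytosolic thioredoxin, which reduces disulfides in other proteins, was called in no comparison. Its group means ran from 152 ± 18.2 CPM in Hsp70-null at day 47 to 224 ± 23.1 CPM in exercised w1118 flies. Those exercised w1118 pools had 207, 218, 258 and 215 CPM, all above the untreated w1118 pools at day 7 with 190, 199, 157 and 151 CPM. The pool at 258 CPM is the one with the accessory gland markers. The exercise difference of 0.36 ± 0.14 had an unadjusted p of 0.0138 and did not pass over all features (adjusted p = 0.189). Among the alternatives run, Trx-2 was called lower in Hsp70-null at day 47 with testis and gut markers as covariates (−0.35, adjusted p = 0.0481), and lower at day 47 than at day 7 in Hsp70-null without day 7 replicate 3 (−0.38, adjusted p = 0.048).

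Gclc, the catalytic subunit of the enzyme that sets the pace of glutathione synthesis, had the largest log2 change of the 10 members between day 47 and day 7, in each strain. In Hsp70-null its levels were 143, 125, 134 and 117 CPM at day 7, 122, 163, 147 and 137 CPM at day 23, and 163, 163, 210 and 185 CPM at day 47. In w1118 they were 130, 128, 131 and 153 CPM at day 7, 170, 143, 162 and 142 CPM at day 23, and 281, 218, 250 and 217 CPM at day 47. Day 47 did not overlap day 7 in either strain. The log2 fold change for day 47 against day 7 was 0.47 ± 0.11 in Hsp70-null (adjusted p = 0.00156) and 0.83 ± 0.11 in w1118 (adjusted p = 3.77e-07). Gut marker sums were higher at day 47 too, at 2135 to 27064 CPM in w1118, against 105 to 1673 CPM at day 7. In Hsp70-null they were 3036 to 10473 CPM at day 47, against 209 to 1918 CPM at day 7. The gut sums of these ages did not overlap in either strain, so a gut covariate cannot be told apart from age. With testis and gut markers as covariates the Gclc value was 0.30 in Hsp70-null (adjusted p = 0.0856) and 0.57 in w1118 (adjusted p = 0.00282). For day 47 against day 23 it was 0.34 ± 0.11 in Hsp70-null (adjusted p = 0.0817, called by DESeq2 at 0.0281 and with a minimum of 10 counts at 0.0332) and 0.65 ± 0.11 in w1118 (adjusted p = 8.46e-05).

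At day 47 Gclc was lower in Hsp70-null than in w1118 legs, without overlap (log2 fold change −0.42 ± 0.11, adjusted p = 0.00472), and each of the 8 fits that left out 1 library kept the call. At days 7 and 23 the strain difference was −0.06 ± 0.11 and −0.11 ± 0.11 (adjusted p = 0.733 and 0.552). The age effects of the strains differed by −0.36 ± 0.15 for day 47 against day 7, with an unadjusted p of 0.0245 that did not pass over all features (adjusted p = 0.179). With muscle and fat body markers as covariates the day 47 strain difference was −0.40 (adjusted p = 0.0567). The muscle sums of the strains did not overlap at that age, so this fit cannot tell strain and muscle RNA apart. Gut markers at day 47 summed to 3036 to 10473 CPM in Hsp70-null and 2135 to 27064 CPM in w1118 pools.

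Gclm, the modifier subunit of the same ligase, was already called higher at day 23 in w1118. In Hsp70-null its levels were 51.8, 72.0, 55.7 and 88.7 CPM at day 7, 68.1, 98.3, 78.9 and 77.0 CPM at day 23, and 78.2, 83.0, 82.9 and 89.9 CPM at day 47. In w1118 they were 56.0, 51.9, 57.4 and 54.6 CPM at day 7, 98.0, 101, 105 and 80.5 CPM at day 23, and 95.4, 82.3, 78.7 and 103 CPM at day 47. The day 7 pools were close together in w1118 and spread in Hsp70-null, where replicate 4 was above most of the later pools. In w1118 every pool at days 23 and 47 was above every pool at day 7. The log2 fold change there was 0.81 ± 0.16 for day 23 against day 7 (adjusted p = 0.000664) and 0.71 ± 0.16 for day 47 against day 7 (adjusted p = 0.000637), while day 47 against day 23 gave −0.10 ± 0.16 (adjusted p = 0.782). In Hsp70-null day 47 against day 7 gave 0.32 ± 0.16 (adjusted p = 0.118) and no age contrast of Gclm was called, although without day 7 replicate 4 the value was 0.48 (adjusted p = 0.0256). The strains' changes to day 23 differed by −0.54 ± 0.22 (adjusted p = 0.174). With muscle and fat body markers as covariates, the w1118 values became 0.34 for day 23 (adjusted p = 0.419) and 0.11 for day 47 (adjusted p = 0.817). The fat body sums of w1118 pools were 5824 to 11613 CPM at day 23, against 3816 to 7312 CPM at day 7. Their muscle sums were 15247 to 19629 CPM at day 23 and 14981 to 16260 CPM at day 47. At day 7 the muscle sums were 23866 to 31777 CPM, without overlap with either later age. The covariate fit therefore cannot tell age and muscle RNA apart, and the cause was not tested.

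Keap1, the adaptor that holds CncC back, was higher at day 47 than at day 7 in w1118 by the test, through 1 library. The Hsp70-null pools had 16.6, 18.0, 19.7 and 19.9 CPM at day 47 and 18.5, 20.6, 22.1 and 26.2 CPM at day 7 (log2 fold change −0.24 ± 0.18, adjusted p = 0.324). The w1118 pools had 21.0, 46.6, 18.2 and 18.7 CPM at day 47 and 16.5, 16.3, 16.9 and 21.3 CPM at day 7. In w1118 replicate 2 at day 47 stood far above every other pool, and the other day 47 pools overlapped day 7. The w1118 log2 fold change of 0.56 ± 0.18 (adjusted p = 0.0156) became 0.12 without that library (adjusted p = 0.441). It was also not called with the compared groups fitted alone (adjusted p = 0.189). The strain difference at day 47, −0.50 ± 0.18, did not pass (adjusted p = 0.0535) and includes the same w1118 library, without which it was −0.06 (adjusted p = 0.848). It was called under 6 alternatives, namely a minimum of 10 counts in every library (adjusted p = 0.0464), testis and gut markers as covariates (0.0302), DESeq2 (0.0367), and without w1118 replicate 1 (0.0366), 3 (0.0154) or 4 (0.0175).

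The transcription factor gene cnc was the least variable of the 10 and still separated the strains at day 47. Its levels at day 47 were 388, 394, 381 and 391 CPM in Hsp70-null and 445, 456, 447 and 515 CPM in w1118 pools, without overlap. The cnc log2 fold change was −0.26 ± 0.07 (adjusted p = 0.00516), and all 8 fits that left out 1 library and all 11 other alternatives kept the call. With muscle and fat body markers as covariates it was −0.35 (adjusted p = 0.00411), although the muscle sums of these groups did not overlap. At day 7 the strain difference was −0.14 ± 0.07 (adjusted p = 0.137) and at day 23 it was 0.02 ± 0.07 (adjusted p = 0.902).

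The age effect of cnc, day 47 against day 7, was a log2 fold change of 0.13 ± 0.07 in Hsp70-null (adjusted p = 0.148) and 0.25 ± 0.07 in w1118 (adjusted p = 0.00401). In w1118 it was also higher at day 47 than at day 23 (0.23 ± 0.07, adjusted p = 0.0222). The call against day 23 was lost without day 23 replicate 1 (adjusted p = 0.0608), day 23 replicate 2 (0.0962) or day 47 replicate 4 (0.118), and with the compared groups fitted alone (0.14). With testis and gut markers as covariates the w1118 value for day 47 against day 7 was 0.18 (adjusted p = 0.144). The gut sums of these ages did not overlap, so that fit cannot tell age and gut RNA apart. The strains' effects of day 47 against day 7 differed by −0.12 ± 0.10 (adjusted p = 0.521).

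**Figure D2:**
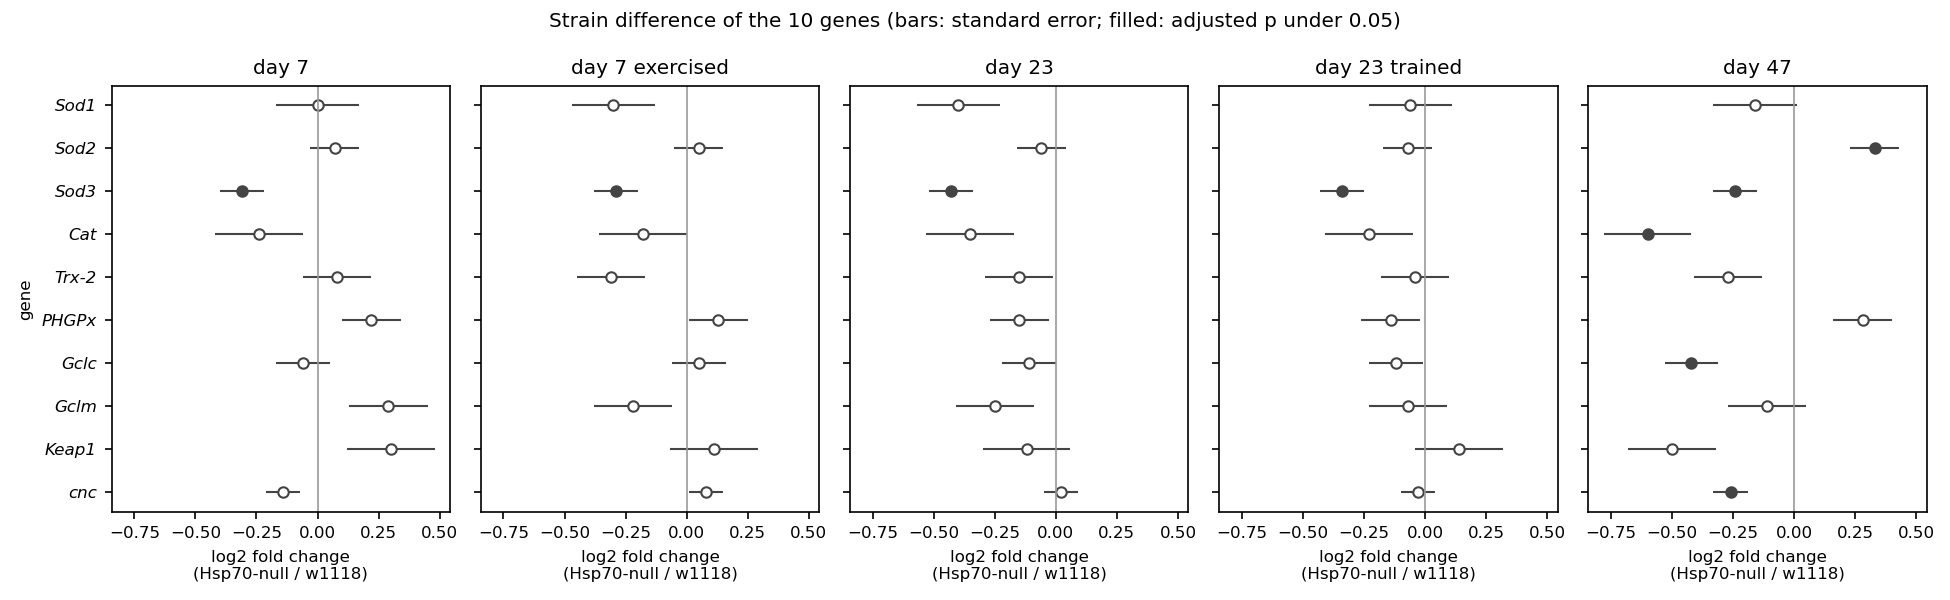
Log2 fold change of Hsp70-null over w1118 (x axis) for each of the 10 genes (y axis) in the 5 pairs of groups, with bars of 1 standard error; filled points have an adjusted p under 0.05. Sod3 is filled and left of 0 in all 5 panels, and day 47 adds Cat at −0.60, Gclc at −0.42 and cnc at −0.26 on the left and Sod2 at 0.33 on the right.

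**Figure D3:**
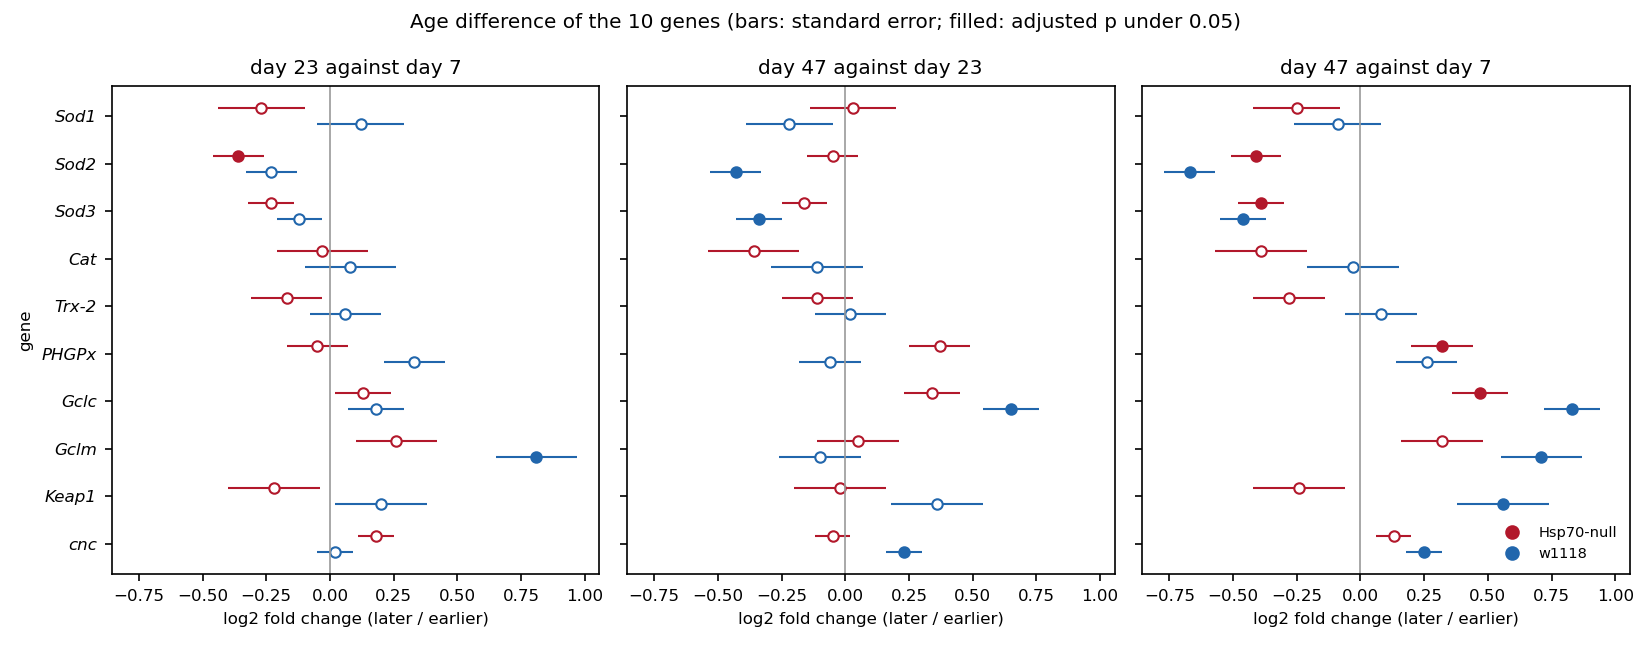
Log2 fold change between ages, later over earlier (x axis), for each of the 10 genes (y axis) in Hsp70-null (red, upper point) and w1118 (blue, lower point), with bars of 1 standard error; filled points have an adjusted p under 0.05. For day 47 against day 7, Sod2 and Sod3 are filled on the left and Gclc is filled on the right in both strains.

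Whether the strains aged differently was tested as a strain by age difference for each gene, and edgeR called 0 of the 10 members for each of the 3 age pairs. The share of all features called was 0.232% for day 23 against day 7, 0.178% for day 47 against day 23 and 1.64% for day 47 against day 7. At an unadjusted p under 0.05 there were 2, 3 and 2 members, and DESeq2 called 0 in each. The lowest adjusted p was that of Keap1 for day 47 against day 7, with a log2 difference of −0.80 ± 0.26 (adjusted p = 0.114), which includes the w1118 pool at 46.6 CPM. A call for 1 strain and not for the other, as for Gclm, PHGPx, Keap1 and cnc with age, is therefore not shown to be a difference between the strains.

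Neither 2 h of exercise nor 19 days of training moved a member past the threshold. After exercise, edgeR called 0 of 10 in Hsp70-null, where 0.0464% of all features were called, and 0 of 10 in w1118, where 0.402% were. After training it called 0 of 10 in Hsp70-null (0.0464% of all features) and 0 of 10 in w1118 (0.0%). Members at an unadjusted p under 0.05 numbered 0 for exercise in Hsp70-null, 1 for exercise in w1118 (Trx-2), 0 for training in Hsp70-null and 2 for training in w1118 (Sod1 and Sod3), and DESeq2 called 0 in all 4. The trained w1118 pools had 82.5 ± 11.1 CPM of Sod3 and the untrained 95.2 ± 7.29 CPM (log2 fold change −0.21 ± 0.09, adjusted p = 0.698). Sod1 was at 364 ± 61.0 CPM in trained and 472 ± 145 CPM in untrained w1118 legs (−0.38 ± 0.17, adjusted p = 0.698). Same-numbered trained and untrained w1118 pools deviated together over all features, with r of 0.733, 0.397, 0.101 and 0.301. The values given here are from the fit without a replicate block. A replicate block in the fit of all 40 libraries called no member for training either.

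The strains' responses to exercise and training were not shown to differ for any member. For the strain by exercise difference edgeR called 0 of 10 members and 8.27% of all features. Without the 3 libraries with testis markers, 0 features were called. Gclm (−0.51 ± 0.22, adjusted p = 0.218) and cnc (0.21 ± 0.10, adjusted p = 0.24) were the 2 members with an unadjusted p under 0.05. For the strain by training difference 0 of 10 members and 0.0% of features were called, and 0 members had an unadjusted p under 0.05. DESeq2 called 0 members in both.

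Around the 10 members, 46 other genes of the same pathways were found and 43 could be tested. In Hsp70-null against w1118 legs 9 were higher and 7 lower at day 7, where 25.8% of all features were called. The counts were 6 higher and 9 lower at day 23 (17.8% of all features) and 6 higher and 6 lower at day 47 (19.4%). At day 47 against day 7, 6 were higher and 8 lower in Hsp70-null (28.9% of all features), and 9 were higher and 10 lower in w1118 (37.6%). Exercise called 0 of 43 in Hsp70-null (0.0464% of all features) and 0 of 43 in w1118 (0.402%). Training called 0 of 43 in Hsp70-null (0.0464% of all features) and 0 of 43 in w1118 (0.0%). At an unadjusted p under 0.05 there were 9 for exercise in Hsp70-null, 8 for exercise in w1118 and 4 for training in each strain, and DESeq2 called 2, 1, 1 and 1.

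The day 7 count between the strains was smaller without the 3 libraries with testis markers. Without those 3 libraries, Hsp70-null legs at day 7 had 3 of 42 genes called higher and 4 called lower, where 15.7% of all features were called. The testis-biased TrxT had 1411 counts in Hsp70-null day 7 replicate 2, against 4 to 16 in the other Hsp70-null pools and 2 to 5 in w1118 pools. Grx1t, a glutaredoxin, had 300 counts in that library and 0 or 1 in the other 7 pools of day 7. Trxr-2, a thioredoxin reductase, had 161 counts there and 0 to 4 in the other 7. All 3 genes were among the 9 called higher. Without the libraries TrxT was not called (adjusted p = 0.299), and Grx1t and Trxr-2 had too few counts to be tested. The day 7 calls of fs(1)h, sgg, GstS1, Pxn, MsrA and dj-1beta were lost as well, with adjusted p of 0.0591 to 0.241. The counts at day 23 (6 higher, 9 lower) and day 47 (6 higher, 7 lower) moved little.

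NADPH is the electron donor of the thioredoxin and glutathione systems. Of 5 genes listed under NADPH supply, 3 were called lower in Hsp70-null legs at day 7, 5 at day 23 and 4 at day 47, with none higher. Of all features, 25.8%, 17.8% and 19.4% were called at these ages. Taldo, 1 of the 5, encodes a transaldolase, which does not itself make NADPH. Zw, Pgd and Taldo kept their day 7 calls without the libraries with testis markers. Zw, the glucose-6-phosphate dehydrogenase that opens the pentose phosphate pathway, averaged 63.9 ± 2.52 CPM in Hsp70-null at day 47, against 111 ± 19.2 CPM in w1118 (log2 fold change −0.79 ± 0.12, adjusted p = 6.17e-06). Its differences at days 7 and 23 were −0.92 and −0.56. Pgd, the next dehydrogenase of that pathway, averaged 121 ± 5.13 CPM in Hsp70-null at that age, against 218 ± 56.9 CPM in w1118 (−0.84 ± 0.15, adjusted p = 5.6e-05). Taldo, the transaldolase of the same pathway, was lower at each age, with log2 fold changes of −1.12 ± 0.21 at day 7, −0.94 ± 0.21 at day 23 and −0.98 ± 0.21 at day 47. In untreated flies the pools of the strains did not overlap for these 3 genes at any age. The share of all features without overlap was not computed. In trained flies Zw overlapped, with 61.2 to 88.6 CPM in Hsp70-null and 79.8 to 113 CPM in w1118 pools, and Pgd met at 139 CPM. None of the 3 genes was called for day 47 against day 7 in either strain.

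Of 6 genes of glutathione synthesis and use, Hsp70-null legs had 3 called higher, Grx1t among them, and 1 called lower at day 7. Day 23 had 1 called in each direction, and day 47 had 2 higher and 1 lower. Of all features, 25.8%, 17.8% and 19.4% were called at days 7, 23 and 47. Without the libraries with testis markers, 1 of 5 tested genes was called in each direction at day 7 (15.7% of all features). GstD1, a glutathione transferase much used as a readout of CncC activity, was higher in Hsp70-null legs at all 3 ages, with 947 ± 99.8 CPM in Hsp70-null at day 7, against 569 ± 79.8 CPM in w1118 (log2 fold change 0.74 ± 0.13, adjusted p = 4.56e-05), 0.72 ± 0.13 at day 23 and 0.69 ± 0.13 at day 47. Grx1, a glutaredoxin, was lower, with 40.2 ± 3.42 CPM in Hsp70-null at day 7, against 64.9 ± 3.01 CPM in w1118 (−0.69 ± 0.14, adjusted p = 0.000522). Gss1 and Gss2, adjacent genes for glutathione synthase whose counts were nearly equal in every group, were higher at day 47 than at day 7 in both strains, with log2 fold changes of 1.5 ± 0.44 in Hsp70-null and 1.76 ± 0.45 in w1118 for Gss1. Reads may be shared between these copies, so their separate values are uncertain.

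Of 8 genes for repair and iron, Hsp70-null legs had 3 called higher and 1 called lower at day 7, 2 in each direction at day 23, and 3 higher and 1 lower at day 47. Of all features, 25.8%, 17.8% and 19.4% were called at these ages. Without the libraries with testis markers the day 7 count was 2 higher and 0 lower, where 15.7% of all features were called. MsrA was lower in Hsp70-null legs, most at day 47 with 29.8 ± 2.02 CPM in Hsp70-null, against 73.3 ± 6.51 CPM in w1118 (log2 fold change −1.30 ± 0.19, adjusted p = 2.56e-06). SelR, which acts on the other stereoisomer of the oxidized residue, was higher, with 86.1 ± 1.77 CPM in Hsp70-null at that age, against 59.1 ± 4.77 CPM in w1118 (0.54 ± 0.06, adjusted p = 5.55e-08). Sesn, the sestrin, was higher in Hsp70-null at all 3 ages, with log2 fold changes of 0.29 ± 0.08 at day 7, 0.47 ± 0.08 at day 23 and 0.45 ± 0.08 at day 47. Fer1HCH, the ferritin heavy chain, was higher at day 47 than at day 7, with log2 fold changes of 0.72 ± 0.15 in Hsp70-null and 0.96 ± 0.15 in w1118. Pxn, a peroxidase that is also a hemocyte marker, was higher in Hsp70-null too, with 0.33 ± 0.12 at day 7, 0.47 ± 0.12 at day 23 and 0.61 ± 0.12 at day 47. Without the libraries with testis markers its day 7 call was lost (0.30, adjusted p = 0.139). CG5948, listed with the superoxide dismutase genes, was lower at day 47 than at day 7, with log2 fold changes of −1.34 ± 0.25 in Hsp70-null and −0.63 ± 0.25 in w1118.

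Of 6 listed partners and regulators of cnc, 2 were called between the strains at day 7, both lower in Hsp70-null, 2 at day 23, 1 in each direction, and 0 at day 47, where 3 had an unadjusted p under 0.05 and DESeq2 called 0. Of all features, 25.8%, 17.8% and 19.4% were called at these ages. The 2 partners called at day 7 were fs(1)h, the fly BET protein (−0.34 ± 0.12, adjusted p = 0.0423), and sgg, the fly GSK-3 kinase (−0.23 ± 0.08, adjusted p = 0.0328). Both calls were lost without the libraries with testis markers (−0.23, adjusted p = 0.213 for fs(1)h and −0.18, adjusted p = 0.162 for sgg). The kinase gene sgg was also lower at day 47 than at day 7 in w1118 (−0.25 ± 0.08, adjusted p = 0.0122). In Hsp70-null this age contrast of sgg was called only without the libraries with testis markers (−0.25, adjusted p = 0.0314), not in the fit of all libraries. The small Maf protein gene maf-S, whose product pairs with CncC on DNA, was lower in Hsp70-null legs at day 23, with 44.9 ± 2.37 CPM in Hsp70-null, against 55.6 ± 10.2 CPM in w1118 (log2 fold change −0.31 ± 0.10, adjusted p = 0.0321), and was not called at days 7 and 47. Cul3 was called at none of the 3 ages, with −0.21 ± 0.08 at day 47 (adjusted p = 0.0778), where it was called without the libraries with testis markers (−0.21, adjusted p = 0.000528). The gene ref(2)P, the fly p62 and itself a CncC target, was higher at day 47 than at day 7, with log2 fold changes of 0.35 ± 0.09 in Hsp70-null (adjusted p = 0.00605) and 0.43 ± 0.10 in w1118 (adjusted p = 0.000629). It was higher in Hsp70-null at day 23 (0.31 ± 0.09, adjusted p = 0.0183).

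Of 7 peroxiredoxin genes, whose products reduce peroxides with electrons from thioredoxin or glutathione, 0 were called by edgeR between the strains at days 7, 23 and 47. At an unadjusted p under 0.05 there were 1, 3 and 2, and DESeq2 called 0 at day 7, 2 at day 23 and 0 at day 47. Of all features, edgeR called 25.8%, 17.8% and 19.4% at these ages. With age the peroxiredoxin genes moved in both directions. At day 47 against day 7, 0 were higher and 3 lower in Hsp70-null (28.9% of all features called), and 2 were higher and 2 lower in w1118 (37.6%). Prx2540-1 and Prx2540-2 both had a log2 fold change of −0.83 in Hsp70-null (adjusted p = 0.00547 and 0.00296), where Prx3 was lower by the test too (−0.25 ± 0.10, adjusted p = 0.0442, and 0.0892 without the libraries with testis markers). Prx2540-1 and Prx2540-2 are near-identical copies, so their separate values are uncertain. In w1118 Jafrac1 (0.31 ± 0.08) and Jafrac2 (0.71 ± 0.28) were higher, and Prx5 (−0.56 ± 0.13) and Prx2540-2 (−0.57 ± 0.21) lower. In the thioredoxin system, of 4 tested genes the calls between the strains were those of TrxT and Trxr-2 at day 7. Trxr-1, the main thioredoxin reductase, was higher at day 47 than at day 7, with log2 fold changes of 0.38 ± 0.07 in Hsp70-null and 0.48 ± 0.07 in w1118.

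**Figure D4:**
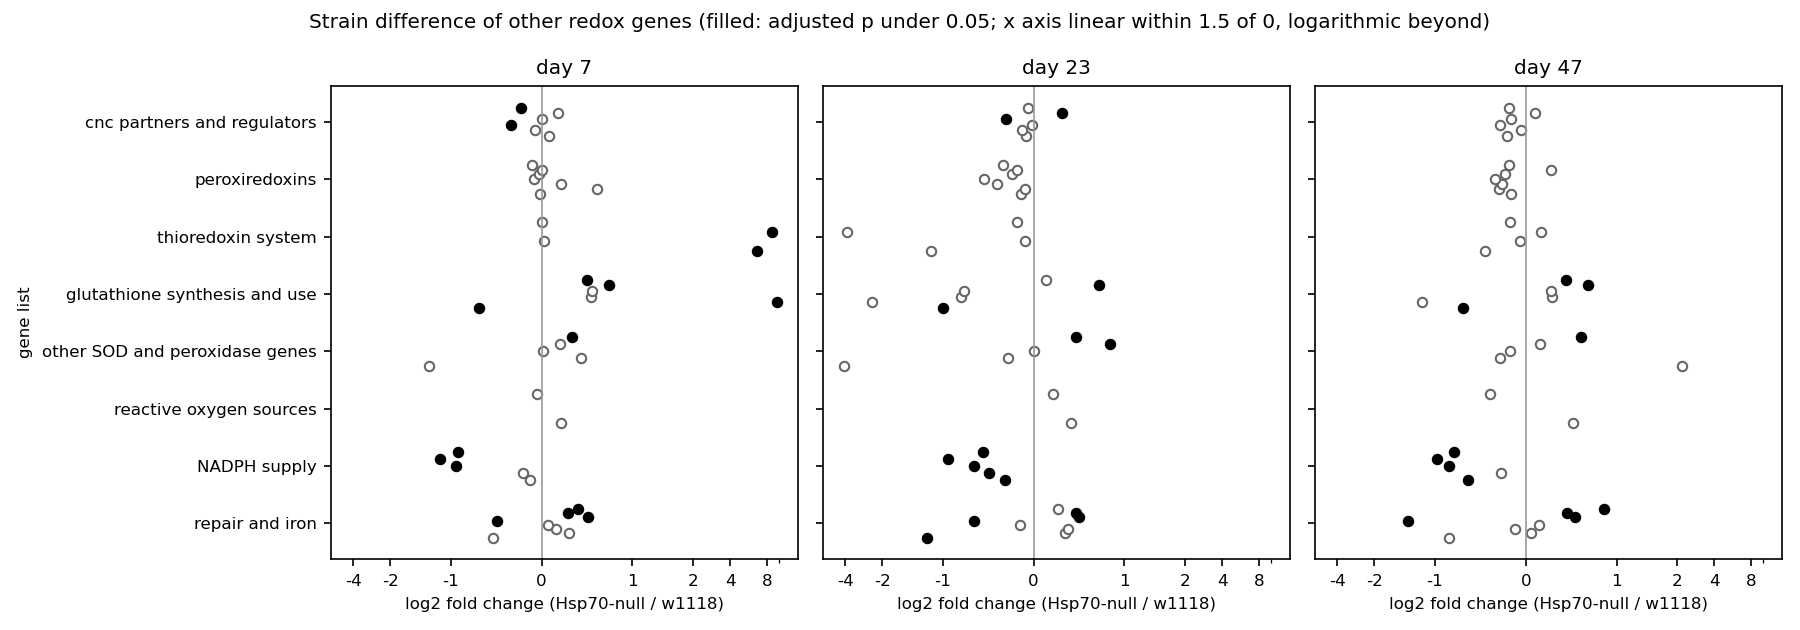
Log2 fold change of Hsp70-null over w1118 (x axis, linear within 1.5 of 0 and logarithmic beyond) for the 43 other pathway genes tested, by gene list (y axis), at days 7, 23 and 47; filled points have an adjusted p under 0.05. The filled NADPH supply points all lie left of 0, and the far right points at day 7 are TrxT and Trxr-2 among thioredoxin genes and Grx1t among glutathione genes.

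Over the groups, some members ran together and others ran opposite. Among the 10 group means, the closest pair was Sod1 and Trx-2 (Pearson r = 0.89) and the most opposed pair Sod2 and cnc (r = −0.89). The 2 subunits Gclc and Gclm had r = 0.51, and Keap1 and cnc had r = 0.52. Among 8631 features with a mean of at least 5 CPM, the feature most like Sod2 was COX4, a subunit of cytochrome c oxidase (r = 0.992), and the one most like Sod3 was Eip63F-1 (r = 0.989). Cat was most like CG16790 (0.979), Gclm most like CG8441 (0.971), Gclc most like Pgant6 (0.968) and cnc most like p130CAS (0.961). The others had ReepB for Sod1 (0.942), RpL23A for PHGPx (0.915), CG34132 for Trx-2 (0.912) and eIF2gamma for Keap1 (0.903). These are descriptions over 10 means that share ages and strains, with no p, and by Spearman's correlation the top feature was another one for every member but Trx-2.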

How the data were processed

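The authors deposited a table of whole-number read counts for 23932 features in 40 libraries, with no normalization. Per the labels' protocols, libraries were strand-specific. The submitters' processing notes name HISAT2 2.1.0, kallisto 0.44.0 and the build BDGP6. How reads were counted is not given in the sources used here. Coordinates are from Ensembl BDGP6.54, matched by FlyBase identifier.

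The counts were tested in R 4.3.3 with the quasi-likelihood method of edgeR 4.0.16. A single fit held all 40 libraries with 1 coefficient per group (10 groups), after trimmed mean of M values scaling and an expression filter by group that left 12939 features. Within each of 20 comparisons, p-values were adjusted over all tested features (Benjamini-Hochberg), at a threshold of 0.05. The standard error is |log2 fold change| over √F, and intervals are 1.96 standard errors either side. Levels are CPM on scaled library sizes, and marker sums are CPM on total counts. Alternatives changed the normalization, the tool (DESeq2 1.42.0), the filter, the libraries fitted, the replicate block, the spread estimate and marker covariates, and left out libraries. Where the marker sums of compared groups did not overlap, a covariate fit cannot tell the marker and the group apart. Same-numbered pools of 2 groups correlated over 0.1 in each of 4 pairs for training in w1118 and for the strains in trained flies, but not in the other comparisons of 2 groups.

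The members and lists were chosen with earlier results of these data known. Other pathway genes are named when called with 1 sign between the strains at all 3 ages, or for day 47 against day 7 in both strains with at least a 1.5-fold change in each, besides maf-S, Cul3 and ref(2)P. All other pathway genes in the text were named after their values were seen, and the muscle and fat body covariates and the fits without the libraries with testis markers were added after the data were seen. The most alike feature is the one with the highest Pearson correlation of log2 CPM over group means.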

Additional observations from a re-analysis of the deposited data

Results flagged for a closer look

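Levels were examined for pools standing apart from the other 3 of their group, by the gap to the nearest pool over the whole range of the group. Of 100 gene and group combinations, 12 passed Dixon's 95% critical value, where chance passes about 1 in 20. At day 47, Keap1 was at 46.6 CPM in w1118 replicate 2, against 18.2 to 21.0 CPM in the other pools, and PHGPx was at 476 CPM in Hsp70-null replicate 4, against 328 to 340 CPM. The age calls of both genes were lost without these pools. In w1118 replicate 4 of the same age cnc was at 515 CPM, against 445 to 456 CPM.

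At day 23, w1118 replicate 2 was high for 2 members, Sod2 at 204 CPM (others 151 to 158) and PHGPx at 419 CPM (others 283 to 289). Sod3 was low in Hsp70-null replicate 3 at 59.5 CPM (others 73.4 to 75.8) and in w1118 replicate 1 at 84.4 CPM (others 97.3 to 100). In trained Hsp70-null flies cnc was at 441 CPM in replicate 2 (others 402 to 406). At day 7 in w1118, replicate 4 was high for Gclc at 153 CPM (others 128 to 131) and Keap1 at 21.3 CPM (others 16.3 to 16.9), and replicate 1 was high for Sod3 at 106 CPM (others all 102). In exercised w1118 flies Sod1 was at 406 CPM in replicate 4 (others 524 to 538).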

How the results depend on the processing

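Over the 25 gene and comparison pairs that were called, 476 alternatives were run. In 418 the direction and the call were kept, in 58 the call was lost, and 0 reversed. Another 13 pairs that were not called were called under at least 1 alternative. The counts below are of the 10 members called. For the strains, day 7 gave 2 with the compared groups only, day 47 gave 7 with testis and gut covariates, 6 with a minimum of 10 counts or DESeq2, and 2 with muscle and fat body covariates (added after seeing the data), exercised flies gave 0 with testis and gut covariates, and trained flies gave 0 with the compared groups only, without or with a replicate block. For day 23 against day 7 in Hsp70-null, relative log expression scaling, a minimum of 10 counts in every library and DESeq2 each gave 2. Either set of marker covariates, leaving out the 1 library over 10 times the testis median or the 3 with testis markers, and the compared groups only each gave 0. For day 47 against day 23 in Hsp70-null, no filter and testis and gut covariates gave 1, and the minimum of 10 counts and DESeq2 gave 2. For day 47 against day 7 in Hsp70-null, testis and gut covariates gave 1. In w1118, day 23 against day 7 gave 2 with no filter, the minimum of 10 counts, testis and gut covariates or DESeq2, and 0 with muscle and fat body covariates, and day 47 against day 23 gave 1 with the compared groups only. The cause was not tested.

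Leaving out 1 library gave 1 member for the strains at day 7. At day 23 it gave 1 to 2 members, at day 47 it gave 3 to 5, and in exercised and in trained flies 0 to 1. With age it gave 0 to 3, 0 to 0 and 3 to 4 in Hsp70-null (day 23 against 7, 47 against 23, 47 against 7) and 1 to 2, 3 to 4 and 5 to 6 in w1118. It gave 0 for exercise, training and the strain by age, exercise and training differences. The replicate block in the fit of all 40 libraries gave 4 for the strains at day 47, where Sod3 was lost (adjusted p = 0.0536), and changed no other call.

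Of the 43 other pathway genes, 16 were called between the strains at day 7 (25.8% of all features). Without the libraries with testis markers 7 of 42 were called (15.7% of all features).

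Counts over all features moved more. The compared groups only called 1681 features at day 7 between the strains in place of 3341, 1529 at day 23 in place of 2300, 499 for day 23 against day 7 in Hsp70-null in place of 2234, and 577 for day 47 against day 23 in w1118 in place of 1731. Muscle and fat body covariates called 1913 for day 47 against day 7 in w1118 in place of 4869. DESeq2 called 139 after exercise and 138 after training in Hsp70-null in place of 6 each. Every library held at least 21955858 counts and every member passed the expression filter, but the effect of depth on the calls was not tested.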
